A study of Mus musculus with 8 samples.

Results

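The genes followed here encode the T cell receptor complex and its first signalling steps, and they were read in sorted group 3 innate lymphoid cells (ILC3s), lymphocytes of the gut wall that carry no antigen receptor. The 10 genes were taken by name: the CD3 chains Cd3d, Cd3e, Cd3g and Cd247, the receptor constant regions Trac, Trbc1 and Trbc2, and the signalling genes Lck, Zap70 and Lat. All 10 were among the 27179 rows of the count table. The cells were sorted from the large intestine of C57BL/6 mice at steady state, with 1 library for each of 8 mice. They were CD127+ and CCR6+ with high CD90 and dim CD45. Cells with surface CD3, CD5, TCR gamma delta, NK1.1, CD11b, CD11c or B220 had been gated out. The 4 controls (labelled wild type, replicates 1 to 4) were Zbtb46f/f by the series' design text, and are called sufficient here. The other 4 (labelled Zbtb46 KO, replicates 5 to 8) carried Cre in addition and are called deficient. Both groups therefore carried the floxed alleles, and Cre set them apart. The labels do not give the age or sex of the mice.

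On a T cell, the alpha and beta chains bind antigen and have almost no cytoplasmic part. They pass the signal to the CD3 delta, epsilon, gamma and zeta chains, whose cytoplasmic tyrosine motifs are phosphorylated by the kinase LCK. The kinase ZAP-70 docks on those motifs and phosphorylates the adaptor LAT, which gathers the enzymes that raise calcium and switch on transcription. Innate lymphoid cells have no assembled receptor, yet transcripts from receptor loci that were never rearranged, and some of the signalling genes, are known from NK cells and ILCs.

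Library totals ran from 25328231 to 33760743 counts, and a count of 0 allows up to 0.0889 to 0.118 CPM (counts per 1000000, with library totals scaled by TMM factors; the limit is 3 counts of the total and covers counting error only). A gene is called detected in a library when it had more than 3 counts there. Zbtb46 itself had 7.95, 47.7, 88.4 and 26.4 CPM in sufficient replicates 1 to 4 and 4.78, 0.528, 3.16 and 0.124 CPM in deficient replicates 5 to 8, without overlap. Its log2 fold was -4.31 (edgeR adjusted p = 0.885, DESeq2 adjusted p = 0.0115). Sorting markers were present in all 8: Il7r, which encodes CD127, at 1331 to 2123 CPM, Thy1 (CD90) at 128 to 417 and Ccr6 at 71.1 to 337. Sufficient replicate 1 and deficient replicate 6 were least like the rest, with median Spearman correlations to the other 7 libraries of 0.693 and 0.679, against 0.729 to 0.758. Values with ± are means and SD (n = 4 per group unless stated), and log2 folds compare deficient with sufficient libraries. Gene positions are those of RefSeq on GRCm38.p6.

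The receptor beta constant regions and the kinase and adaptor genes Zap70 and Lat were detected in every library, whereas the CD3 chains were not. Of the 10 genes, 4 were detected in all 8 libraries (Trbc1, Trbc2, Zap70, Lat), 5 in some (Trac in 6, Cd3g and Lck in 5, Cd3d in 4, Cd3e in 1) and 1 in none (Cd247). None differed between the groups past the threshold in edgeR. Of the 10, 8 passed the filter on low counts, and 0 of these 8 had an adjusted p under 0.05, where 0% of all 8878 tested genes did. The groups overlapped in all 8, where they did not overlap in 4.37% of all tested genes. The unadjusted p was under 0.05 for 1 of the 8 (Lck) and for 364 of the 8878. DESeq2 gave 8 of the 10 an adjusted p (Cd3e among them, Trac not) and called 1, again Lck, where it called 3.26% of its 11478 genes.

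**Figure D1:**
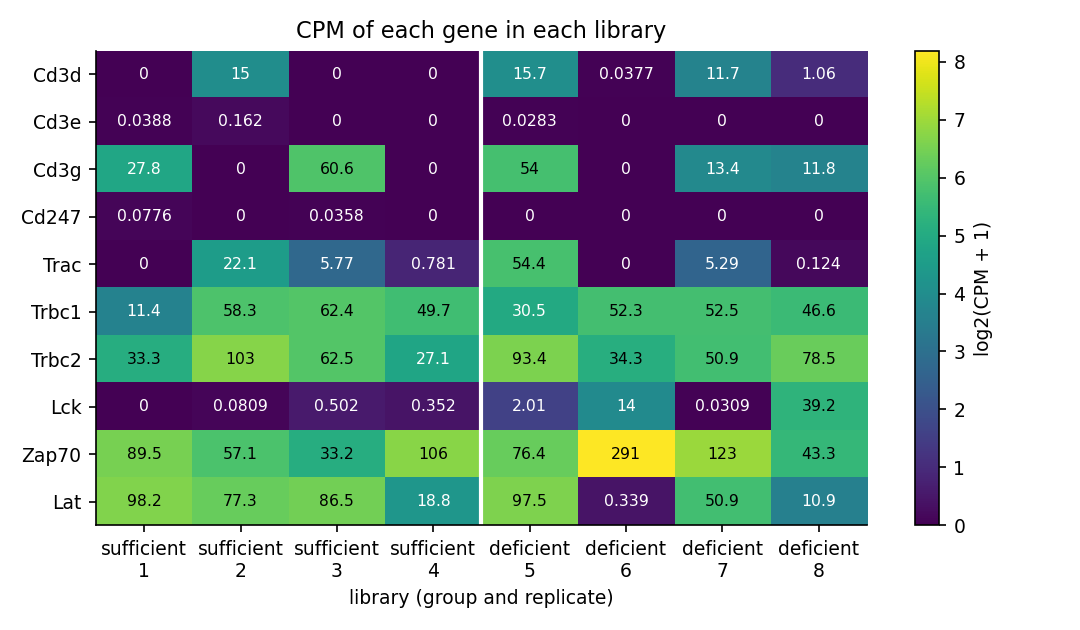
CPM of the 10 genes (rows) in the 8 libraries (columns, sufficient left and deficient right of the white line), coloured by log2(CPM + 1) and printed in each cell. The rows of Trbc1, Trbc2 and Zap70 are filled throughout, and the rows of Cd3e and Cd247 stay at or below 0.162 CPM. Those of Cd3d, Cd3g, Trac and Lck range from 0 or near 0 to 10 CPM or more, with some libraries between.

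The genes of CD3 delta and CD3 gamma, whose chains each pair with CD3 epsilon in the receptor, lie head to head on chromosome 9, with 1338 bases between their outermost annotated starts. Their promoters are shown because the neighbours were detected together in 3 libraries and singly in 3 others. Each line holds the 250 bases before an annotated start, 5′ to 3′ on the gene's own strand, from RefSeq (GRCm38.p6), with matches to the E-box letters CANNTG in capitals.
Cd3g, chr9:44980432-44980681, minus strand: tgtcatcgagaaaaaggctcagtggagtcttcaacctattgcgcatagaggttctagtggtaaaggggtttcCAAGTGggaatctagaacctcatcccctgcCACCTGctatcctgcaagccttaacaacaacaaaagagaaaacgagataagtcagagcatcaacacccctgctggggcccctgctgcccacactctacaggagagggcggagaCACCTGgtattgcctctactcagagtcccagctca
Cd3d, chr9:44981536-44981785, plus strand: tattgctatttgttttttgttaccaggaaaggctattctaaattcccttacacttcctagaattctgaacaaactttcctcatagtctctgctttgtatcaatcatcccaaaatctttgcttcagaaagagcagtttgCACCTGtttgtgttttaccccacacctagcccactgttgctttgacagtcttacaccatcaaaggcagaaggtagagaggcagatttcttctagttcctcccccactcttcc
E-boxes are the motif read by E proteins, transcription factors that are held in check by Id2 in innate lymphoid cells. Cd3g had 3 matches and Cd3d 1, and 66.2% of 32851 promoter windows of this length held at least 1. The TCF letters CTTTGA matched 2 times in Cd3d and 0 times in Cd3g (13.8% of windows held them). The ETS letters AGGAAG matched 1 time in Cd3d and 0 times in Cd3g (29.5%), and the RUNX letters TGTGGT in neither (14%). Both strands were searched, CANNTG reads the same on both, and no match overlapped one of another motif. A match describes the letters and is not shown to be a bound site.

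Cd3g (Entrez 12502, chromosome 9, 44969572 to 44980431) was the most abundant of the CD3 chains per exon length (6.41 CPM per kilobase over all libraries). Sufficient replicates 1 to 4 had 27.8, 0, 60.6 and 0 CPM, and deficient replicates 5 to 8 had 54.0, 0, 13.4 and 11.8 CPM. It thus had no count in 2 sufficient libraries and 1 deficient library and lay well above the limit of detection in the other 5, with raw counts of 381 to 1906 there. Means were 22.1 ± 28.8 and 19.8 ± 23.5 CPM. The fitted log2 fold was -0.16 (standard error 2.31, edgeR adjusted p = 1). Which direction it took depended on single libraries: it was 1.09 without sufficient replicate 3 and -1.40 without deficient replicate 5.

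Cd3d (Entrez 12500, chromosome 9, 44981769 to 44987052) had 0, 15.0, 0 and 0 CPM in sufficient replicates 1 to 4 and 15.7, 0.0377, 11.7 and 1.06 CPM in deficient replicates 5 to 8. Its only sufficient library, replicate 2, had no Cd3g count, and the 2 sufficient libraries with Cd3g, replicates 1 and 3, had no Cd3d count. Both were detected in deficient replicates 5, 7 and 8, where the ratio of Cd3d to Cd3g counts was 0.290, 0.869 and 0.0892. Neither was detected in sufficient replicate 4 or deficient replicate 6. For Cd3d the means were 3.76 ± 7.52 and 7.10 ± 7.76 CPM, with a log2 fold of 0.90 (standard error 2.54, edgeR adjusted p = 1) that was 0.15 without deficient replicate 5 and 10.71 without sufficient replicate 2, which leaves sufficient libraries at 0 only.

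Cd3e and Cd247 were nearly without reads. Cd3e (Entrez 12501, chromosome 9, 44998735 to 45009663), whose chain pairs with both CD3 delta and CD3 gamma, had 1, 4, 0 and 0 counts in the sufficient libraries and 1, 0, 0 and 0 in the deficient ones. Cd247 (Entrez 12503, chromosome 1, 165779952 to 165871153) encodes CD3 zeta, which NK cells also use behind their activating receptors. It had 2, 0, 1 and 0 counts, and 0 in all 4 deficient libraries. Neither gene passed the filter, and no fold is given because nearly all values are at or under the 3-count limit. The RefSeq span of Cd247 overlaps Pou2f1 and 2 gene models. The labels do not say how reads in overlapping genes were counted. No annotated gene overlaps Cd3d, Cd3e or Cd3g. Of the 8 libraries, 3 held 10 CPM or more of Cd3d and 5 held 10 CPM or more of Cd3g, while none exceeded 0.162 CPM of Cd3e.

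Trbc1 (Entrez 100125262, chromosome 6, 41538219 to 41539665) and Trbc2 (Entrez 100125263, chromosome 6, 41546730 to 41548181) are the tandem constant regions of the beta chain. Their coding sequences have 521 bases each and are 95.6% identical in the GENCODE M21 transcripts (GRCm38), with 259 bases in a row the same. Nearly all of the difference lies near the end, and bases 399 to 518 are shown because they hold 19 of the 23 differing bases, which are in capitals.
Trbc1: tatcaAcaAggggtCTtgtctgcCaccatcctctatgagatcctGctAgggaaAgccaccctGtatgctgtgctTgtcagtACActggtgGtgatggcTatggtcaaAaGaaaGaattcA
Trbc2: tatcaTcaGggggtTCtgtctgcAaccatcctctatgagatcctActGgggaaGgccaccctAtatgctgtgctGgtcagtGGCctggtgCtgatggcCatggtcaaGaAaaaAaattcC
Coding reads outside this stretch can seldom tell the copies apart, and the labels do not say how such reads were counted. The split between the 2 rows is therefore uncertain, and their sum is the safer value.

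Trbc1 had 11.4, 58.3, 62.4 and 49.7 CPM in sufficient replicates 1 to 4 and 30.5, 52.3, 52.5 and 46.6 CPM in deficient replicates 5 to 8. Trbc2 had 33.3, 103, 62.5 and 27.1 CPM, and 93.4, 34.3, 50.9 and 78.5 CPM. Trbc1 was lowest in sufficient replicate 1 and Trbc2 in sufficient replicate 4, the groups overlapped for both, and the ratio of Trbc2 to Trbc1 counts ran from 0.546 to 3.06 over the libraries. Summed, the beta constant regions had 44.8, 162, 125 and 76.8 CPM in sufficient and 124, 86.6, 103 and 125 CPM in deficient libraries, or 102 ± 51.6 against 110 ± 18.4 CPM. The log2 fold of the sum was 0.10 (standard error 0.428, edgeR adjusted p = 1). Taken alone it was -0.0033 for Trbc1 (standard error 0.649) and 0.18 for Trbc2 (standard error 0.587), each with an edgeR adjusted p of 1. The sign for Trbc1 changed with the scaling (0.11 with no scaling factors).

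Trac (Entrez 100101484, chromosome 14, 54220521 to 54224198), the constant region of the alpha chain, was far more uneven. Sufficient replicates 1 to 4 had 0, 22.1, 5.77 and 0.781 CPM, and deficient replicates 5 to 8 had 54.4, 0, 5.29 and 0.124 CPM. Deficient replicate 5 held most of the signal, 1921 of the 2096 counts of its group, and its value lay far above the 0 to 5.29 CPM of the other 3. Libraries with much Trbc2 could have almost no Trac: in deficient replicate 8, 2530 counts of Trbc2 stood beside 4 of Trac. Means were 7.16 ± 10.3 and 14.9 ± 26.4 CPM. The log2 fold of 1.05 (standard error 2.37, edgeR adjusted p = 1) became -2.01 without deficient replicate 5 and 2.77 without sufficient replicate 2.

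Joining segments of the beta locus were found in every library and variable segments in few. A finished beta chain transcript joins a variable, a diversity and a joining segment to a constant region. Transcripts from an unrearranged or partly rearranged locus lack this full join. Counts per segment do not show which segments were joined within a transcript. Beta joining segments were counted in all 8 libraries, at a summed 2.09, 14.5, 23.4 and 15.8 CPM in sufficient and 22.1, 11.2, 9.74 and 23.6 CPM in deficient ones. Beta variable segments were detected in 3 libraries, sufficient replicate 2 (8.33 CPM) and deficient replicates 5 (14.7 CPM) and 8 (8.63 CPM). Joining segments in these 3 libraries (14.5 to 23.6 CPM) overlapped those in the other 5 (2.09 to 23.4 CPM). Alpha variable segments were detected in deficient replicates 5, 6 and 8, at 9.88, 5.39 and 0.683 CPM. Deficient replicate 5, the highest in Trac, held 2 alpha and 3 beta variable segments, and deficient replicate 8, with 4 counts of Trac, held 1 and 3. Deficient replicate 6 had 143 counts of the alpha variable segment Trav6-5 and 0 of Trac.

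Receptor gamma transcripts were detected in every library and delta constant transcripts in 1. The gamma constant regions summed to 211, 404, 294 and 211 CPM in sufficient and 202, 127, 135 and 213 CPM in deficient libraries, 280 ± 91.6 against 169 ± 44.7 CPM. The gamma variable segments Trgv4 and Trgv5 were detected in all 8 libraries, and all gamma variable segments together had 34.9 ± 13.7 and 28.1 ± 15.6 CPM. Trdc, the delta constant region, had at most 8 counts (0.247 CPM, deficient replicate 7) and was not detected in the other 7. A delta variable segment, Trdv4, was detected in 5 libraries at up to 17.5 CPM (deficient replicate 6).

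**Figure D2:**
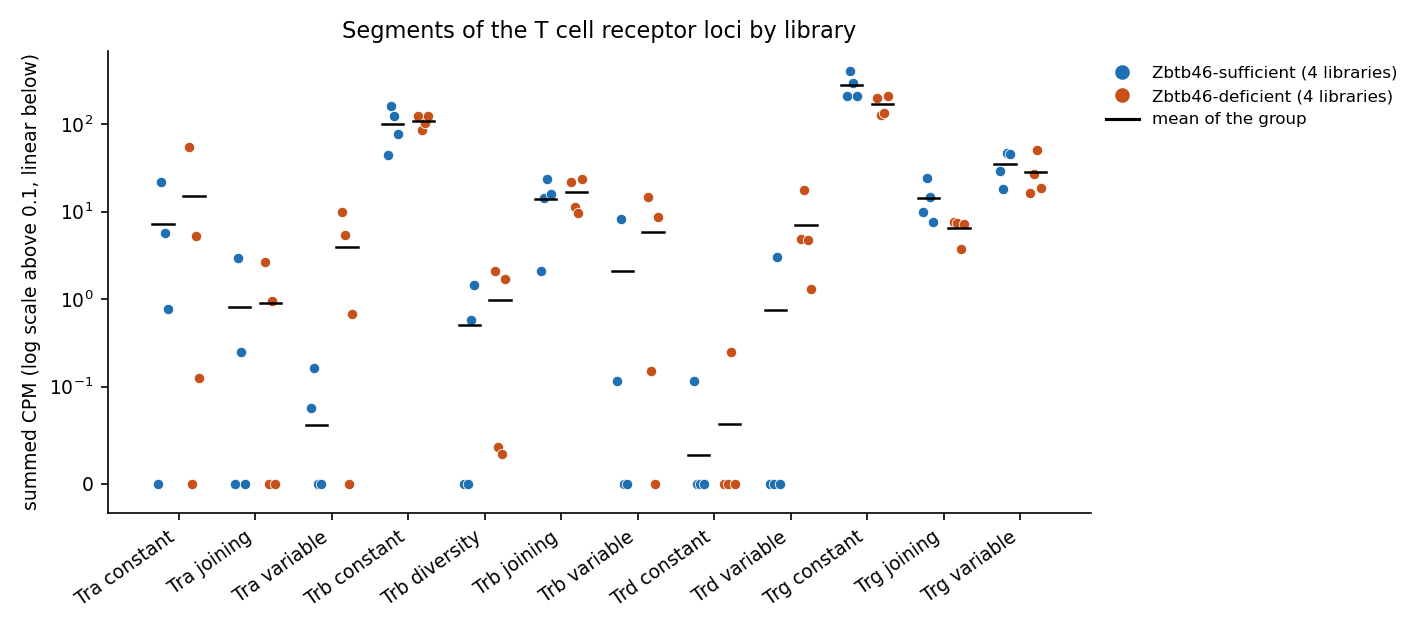
Summed CPM of the constant, diversity, joining and variable segments of the alpha (Tra), beta (Trb), delta (Trd) and gamma (Trg) receptor loci, with 1 point per library and a black line at the group mean; the axis is logarithmic above 0.1 CPM and linear below. Beta and gamma constant segments lie above 40 CPM in all libraries, while alpha constant and beta variable segments range from 0 to 54.4 and 14.7 CPM. Delta diversity and joining segments, with 0 counts in all libraries, are not drawn.

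Lck (Entrez 16818, chromosome 4, 129548344 to 129573641), the kinase that starts signalling at CD4 and CD8 on T cells, was at or near 0 in the sufficient libraries and scattered in the deficient ones. Sufficient replicates 1 to 4 had 0, 0.0809, 0.502 and 0.352 CPM, and deficient replicates 5 to 8 had 2.01, 14, 0.0309 and 39.2 CPM. Deficient replicates 5, 6 and 8 exceeded every sufficient library, and replicate 7 lay below 3 of them, so the groups overlapped. The log2 fold was 5.86 (standard error 2.29, unadjusted p = 0.0285, edgeR adjusted p = 1). DESeq2 gave an adjusted p of 0.0261. The log2 fold was 4.49 without deficient replicate 8. That library and deficient replicate 6 supplied 1264 and 372 of the 1708 deficient counts.

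Zap70 (Entrez 22637, chromosome 1, 36761798 to 36782821), the kinase that NK cells share with T cells, was detected throughout. It had 89.5, 57.1, 33.2 and 106 CPM in sufficient replicates 1 to 4 and 76.4, 291, 123 and 43.3 CPM in deficient replicates 5 to 8. Deficient replicate 6, one of the 2 least typical libraries, was highest, and the rest of the 2 groups intermixed. Means were 71.5 ± 32.6 and 133 ± 110 CPM, and the log2 fold of 0.90 (standard error 0.607, edgeR adjusted p = 1) was 0.17 without deficient replicate 6.

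Lat (Entrez 16797, chromosome 7, 126363827 to 126369705), the membrane adaptor phosphorylated by ZAP-70, had 98.2, 77.3, 86.5 and 18.8 CPM in sufficient replicates 1 to 4. Deficient replicates 5 to 8 had 97.5, 0.339, 50.9 and 10.9 CPM. The lowest Lat value fell in the library with the highest Zap70, deficient replicate 6, with 9 counts of Lat beside 7708 of Zap70. The ratio of Lat to Zap70 counts ran from 0.00117 there to 2.61 in sufficient replicate 3. Means were 70.2 ± 35.3 and 39.9 ± 44.1 CPM, and the log2 fold was -0.82 (standard error 1.16, edgeR adjusted p = 1), or -0.41 without deficient replicate 6 and -1.78 without deficient replicate 5. In bulk libraries such as these, fewer cells with a transcript and less of it per cell cannot be told apart.

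To compare levels between genes, CPM were divided by the kilobases of annotated exon (GENCODE M21). Over all 8 libraries the order was Trbc2 (87.3 ± 41.9 CPM per kilobase, n = 8), Trbc1 (60.7 ± 22.3), Zap70 (34.2 ± 27.4), Lat (19.9 ± 14.6), Trac (11.8 ± 20.3), Cd3g (6.41 ± 7.46), Cd3d (2.99 ± 4.02), Lck (2.40 ± 4.73), Cd3e (0.00701 ± 0.0137) and Cd247 (0.00266 ± 0.00535). Neighbours in this order overlapped in their ranges without exception. Zap70 exceeded Lat in 4 of the 8 libraries, Trac exceeded Cd3g in 4, and Cd3g exceeded Cd3d in 4. Cd3d exceeded Lck, the next in order, in 3. Lat exceeded Trac in 7 libraries, and Lck exceeded Cd3e in 6.

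Switching between presence and absence was common at these levels. Of the 3603 tested genes with a mean of 10 to 50 CPM, 46.5% had at least 1 library with 3 counts or fewer, as did 83.9% of the 2004 genes with 1 to 10 CPM. Cd3g, Trac and Trbc1 belonged to the first of these groups and Cd3d and Lck to the second. All of these except Trbc1 had such a library. At 50 to 100 CPM the share was 4.78%, and Trbc2 and Lat had none. By coefficient of variation over the 8 libraries, Cd3g (116%) and Trac (172%) lay above the median of their level class (85.8%), as did Cd3d (134%) and Lck (197%, median 125%), Lat (73.4%, median 54.4%) and Zap70 (80%, median 35.3%). Trbc1 (36.7%, median 85.8%) and Trbc2 (48%, median 54.4%) lay below theirs. The class median fell as the level rose, so a gene's place within its class also bears on these comparisons. Zap70, at a mean of 102 CPM, lay at the low end of the class from 100 CPM up.

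Likeness to other genes was measured over the 8 libraries as the root mean square difference in log2(CPM + 1), each gene centred on its own mean. It is a description across libraries that share a preparation, without a test. Closest to Cd3g were Cbx5, Pstk and Osm (0.643 to 0.927, against 2.45 for Cd3g around its own mean). Trac was closest to Nol9, Ebi3 and Utp14a (0.445 to 0.554, against 2.07), and Lat to Rb1, Srgap2 and Erg28 (0.561 to 0.642, against 2.03). Trbc1 lay nearest to Rtraf (0.217), Trbc2 to Colgalt2 (0.173) and Zap70 to Sltm (0.347). Only the 6 that averaged 10 CPM or more were compared, and none of these was among the 3 nearest of another. The 3 were drawn from 8878 tested genes, so this says little about whether these 6 varied together.

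Markers of T cells outside the 10 genes ranged from abundant to missing. Of 20 such markers, 5 were detected in all libraries: Icos, a costimulatory receptor (561 to 1950 CPM), Trgc1 (96.0 to 350), the inhibitory receptor genes Pdcd1 (59.4 to 236) and Ctla4 (12.9 to 185), and the coreceptor gene Cd4 (6.68 to 103). Cd4 is also expressed by lymphoid tissue inducer cells, and Icos and Pdcd1 by ILCs. Another 9, such as Trgc4 (0 to 54.9 CPM), were detected in some, and 6 had 3 counts or fewer in every library, among them Cd6, Cd27 and Themis, and Cd8a, Cd8b1 and Cd40lg had 0 throughout. The gated marker Cd5 had at most 0.497 CPM, and Foxp3, which marks regulatory T cells, was detected in 1 library at 0.485 CPM. The whole list summed to 1309 to 2265 CPM in sufficient and 1018 to 2304 CPM in deficient libraries, most of it Icos. Of the list, 7 genes were tested, 0 were called by edgeR in either direction, 2 had higher and 5 lower fitted values, and the median log2 fold was -0.68, beside 0.02 over all tested genes. The unadjusted p was under 0.05 for 0 of the 7.

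T cell markers differed in which libraries they marked. In deficient replicate 5, the highest in Trac, Trat1, an adaptor bound to the receptor complex, had 16.3 CPM and 0 in the other 7 libraries. The costimulatory receptor gene Cd28 had 31.1 CPM there, 2.70 in deficient replicate 8 and at most 0.0619 elsewhere. It did not pass edgeR's filter, and DESeq2 called it (adjusted p = 0.0166). Gzma, a granzyme gene of cytotoxic T and NK cells, had 58.9 CPM there and at most 0.226 elsewhere. The alpha segments Trav1 (242 counts) and Traj33 (69 counts) were counted in deficient replicate 5 only. In the same library Cd4 was at its lowest of all 8 (6.68 CPM), Bcl11b had 0.849 CPM and Ubash3a 1 count. Cd5 and Trgc4 had 0 there. Cd5 also had 0 in sufficient replicates 1 and 4 and deficient replicates 6 and 7, and Trgc4 in sufficient replicate 4 and deficient replicate 7. In sufficient replicate 2, second in Trac, neither Trat1 nor Cd28 was detected, while Bcl11b, a T cell and ILC2 factor gene, was at its highest (21.1 CPM). Ubash3a, a suppressor of receptor signalling in T cells, was highest in sufficient replicate 1 (89.7 CPM), which had no Trac count. The part of T cell RNA in the levels of Cd3d, Cd3g and Trac was not tested. Markers of NK cells and ILC1s summed to 122 to 628 CPM in sufficient and 452 to 1059 CPM in deficient libraries. Klrk1 (57.2 to 518 CPM) and Klrb1c, the gene of the gated NK1.1 (13.6 to 47.9 CPM), were detected in all 8. Ncr1 was detected in 7 libraries, at up to 444 CPM in deficient replicate 5. The sum was highest in that library, where Klrk1 had 423 CPM. The lineage factor gene Eomes was undetected in all 8 and the perforin gene Prf1 was at 0. Markers of macrophages and neutrophils summed to 1.05 to 89.2 and 8.97 to 785 CPM. They were highest in deficient replicates 7 (785 CPM) and 5 (371 CPM), which also had 11.7 and 15.7 CPM of Cd3d. Those of B and plasma cells summed to 8.91 to 135 and 21.1 to 94.2 CPM. Igkc (1.09 to 113 CPM) and Jchain (0.9 to 58.4 CPM) were detected in all 8, Cd79b in 5, and Ms4a1 and Pax5 in none. Epithelial markers summed to 1.47 to 1256 and 0.745 to 28.4 CPM, highest in sufficient replicate 2, the only sufficient library with Cd3d. Stromal markers summed to 50.8 to 1164 and 69.0 to 475 CPM, highest in sufficient replicate 1, where Trbc1 was lowest. Their part in any of the results was not tested either.

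Adaptors that signal for other receptors were far more abundant than the CD3 chains per exon length. Fcer1g had 3782, Hcst 499 and Tyrobp 209 CPM per kilobase over all libraries, against 6.41 for Cd3g. Fcer1g, the common gamma chain of Fc receptors, had 3414 ± 802 in sufficient and 3196 ± 810 CPM in deficient libraries. The NK receptor adaptor genes Hcst (389 ± 127 and 331 ± 77.0 CPM) and Tyrobp (139 ± 95.7 and 140 ± 71.0 CPM) were also present in all 8. Syk, the relative of ZAP-70 used by B cells and myeloid cells, was low and uneven (0 to 15.1 CPM), and so was Lat2, the relative of LAT (0 to 89.8 CPM, highest in deficient replicate 6, where Lat was lowest). Of this list of 14 genes, 9 were tested, 0 passed in edgeR and 1 had an unadjusted p under 0.05 (364 of all 8878 tested genes did). The groups did not overlap in 1 of the 9, the kinase gene Blk of the LCK family, which had 116 ± 24.6 and 201 ± 25.5 CPM (log2 fold 0.78, edgeR adjusted p = 0.983). Over all tested genes the groups did not overlap in 4.37%, and Blk was chosen after its values were seen.

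Downstream partners of the receptor were mostly present in both groups. Of 46 listed kinases, adaptors, phosphatases and transcription factors, 20 were detected in all 8 libraries, 23 in some and 3 in none (Cd2, Sit1 and Themis). The 23 include Plcg1 and Prkcq, each detected in 1 library only, with 7 and 13 counts. Themis, Trat1 and Ubash3a also stand on the list of T cell markers. Of the 36 tested, 0 passed in either direction with edgeR, 21 had higher and 15 lower fitted values, and the median log2 fold was 0.30, beside 0.02 over all tested genes. The unadjusted p was under 0.05 for 3 of them, against 364 of all 8878 tested genes. DESeq2 called 1 of 42, where it called 3.26% of all its genes. The groups did not overlap in 2 of the 36, where they did not in 4.37% of all tested genes. One of them, Ptpn6, passed the filter through the deficient libraries alone, so its lack of overlap followed from the filter. The TEC family kinase gene Txk (540 ± 147 and 462 ± 125 CPM) was among the highest, as was Sla, an adaptor that dampens receptor signalling (685 ± 113 and 872 ± 244 CPM).

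Partners with the smallest p did not pass in edgeR and are given as values. Ptpn6, which encodes the inhibitory phosphatase SHP-1 and was the gene called by DESeq2 (adjusted p = 2.66e-12), had 0, 1, 2 and 1 counts in sufficient libraries. Deficient replicates 5 to 8 had 18.1, 7.46, 6.47 and 6.02 CPM, all above the sufficient ones. With so few sufficient counts, Ptpn6 could pass edgeR's filter only if every deficient library was higher, so this is no separate result. With 4 counts in the sufficient group against 1241 in the deficient one, the log2 fold was 7.81 (standard error 1.72, edgeR adjusted p = 0.515). Ptprc, the gene of the phosphatase CD45 that activates LCK and a marker of the sort, had 316, 499, 511 and 747 CPM in sufficient replicates 1 to 4. The deficient replicates had 944, 919, 807 and 763 CPM, again without overlap, with a log2 fold of 0.72 (standard error 0.256, edgeR adjusted p = 0.983). Nfatc3, a calcium-regulated transcription factor gene, had 75.5 ± 30.5 and 162 ± 64.7 CPM (log2 fold 1.10, edgeR adjusted p = 1). Malt1, a protease of the pathway to NF-kB, had 29.3 ± 22.6 and 7.56 ± 7.14 CPM (log2 fold -1.96, edgeR adjusted p = 1).

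**Figure D3:**
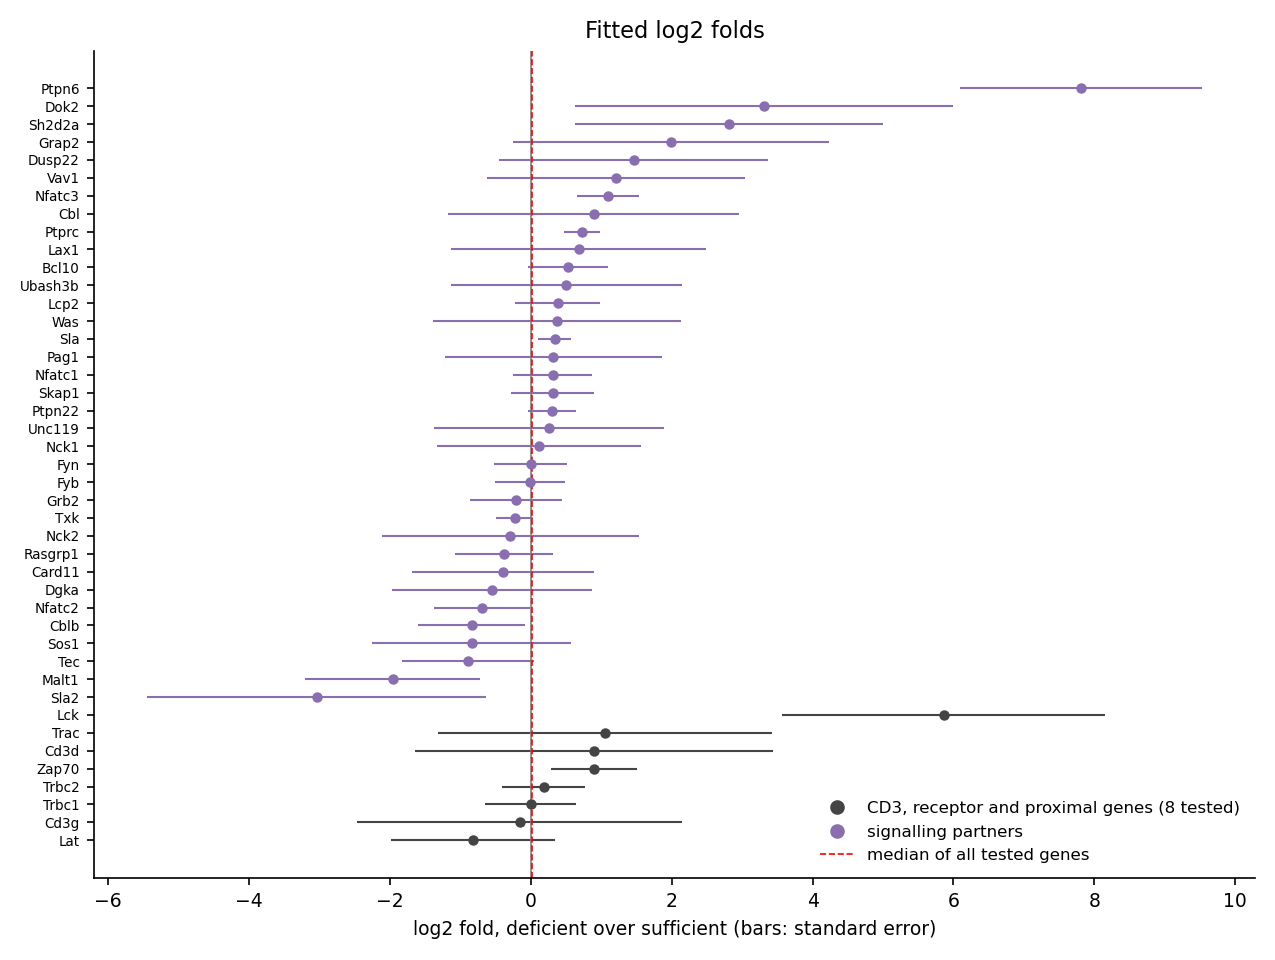
Fitted log2 folds, deficient over sufficient, of the 8 tested genes of the receptor and its proximal signalling (dark, bottom) and the tested partners reported here (purple), with 1 standard error on each side as bars; the dashed line is the median of all tested genes at 0.02. Standard errors of the patchy genes Cd3d, Cd3g, Trac and Lck run from 2.29 to 2.54, against 0.587 to 1.16 for Trbc1, Trbc2, Zap70 and Lat.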

How the data were processed

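RNA was sequenced from sorted ILC3s of 8 mice, 4 per group, with a low-input cDNA kit, per the labels' protocols. The authors deposited 1 table of unnormalized whole-number counts, keyed by Entrez ID. CASAVA 1.8.2, STAR 2.3.0 and mm10 are listed in the submitters' processing notes. The counter, its annotation, its use of strand and multiply mapped reads are not stated there. IDs were matched through RefSeq (GRCm38.p6, the assembly of mm10): 25275 of 27179 rows had a symbol, and the 1904 others held 0.303% of counts. Groups came from sample titles, and no number pairs the mice.

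The counts of all 8 libraries were fitted with edgeR 4.0.16 (quasi-likelihood F test, TMM factors, filterByExpr, R 4.3.3), with Benjamini-Hochberg adjusted p under 0.05 over all tested genes. Standard errors were derived from the F statistic. The script was tested on simulated data. That check was scored only with less spread between libraries than these data show, so it does not measure power here. Alternatives were other scaling, DESeq2 1.42.0, limma 3.58.1 (voom), other filters, Trbc1 and Trbc2 summed, and libraries left out. Reads of amplified cDNA are not independent molecules. Genes were named by rule: all 10 members, the 6 signalling partners with the smallest p and the 4 most abundant, the most abundant and the defining T cell markers, and 5 adaptor genes. Other genes of these lists, and Trav, Traj, Trgv and Trdv segments, were named after their values were seen. Some genes covered by this rule are not reported here. The members and lists were chosen with earlier results of these data known.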

Additional observations from a re-analysis of the deposited data

Results flagged for a closer look

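Among 21 sets of 4 values that were not all 0 (each of the 10 genes and the summed T cell markers, in each group), 3 held a library far from the rest. Chance flags about 1 in 20 such sets, but that rate does not hold where the other 3 values are 0, as for Cd3d and Cd3e: any count above 0 is then flagged, whatever its size. Cd3d had 15.0 CPM in sufficient replicate 2 and 0 in the other 3 sufficient libraries. Trac had 54.4 CPM in deficient replicate 5 and 0 to 5.29 CPM in the other 3. Cd3e had 0.0283 CPM in deficient replicate 5, which is 1 count, and 0 in the rest of its group.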

How the results depend on the processing

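Among 18 alternatives, none but DESeq2 called any of the 10 genes or their partners. DESeq2 called 240 genes higher and 134 lower, with 1 member (Lck) and 1 partner (Ptpn6) among them. Without a filter edgeR called 1 gene higher and 1 lower. With 1 library left out, edgeR called 0 higher and 0 to 2 lower genes (2 without deficient replicate 6). Of 247 refitted folds of 14 named genes, 223 kept their direction and side of the threshold, 22 changed sign and 2 passed. Trbc1, at -0.0033, turned to 0.00021 (RLE factors), 0.021 (upper quartile), 0.11 (no scaling, where the median of all genes was also 0.11), 0.0046 (DESeq2), 0.016 (voom), 0.025 (no filter) and 0.007 (at least 5 CPM in 4 libraries). Cd3g turned to 4.15 with voom and 0.36 without sufficient 1 and deficient 6, and Trac to -0.29 with voom and -5.60 without sufficient 1 and 2 and deficient 5 and 7. With 1 library left out, log2 folds ran from -1.40 to 1.09 for Cd3g, -2.01 to 2.77 for Trac, -0.33 to 0.21 for Trbc1, -0.06 to 0.65 for Trbc2, 0.15 to 10.71 for Cd3d, 4.49 to 6.57 for Lck, 0.17 to 1.19 for Zap70 and -1.78 to -0.41 for Lat. The cause was not tested. With 5 CPM required in 4 libraries, Cd3d and Lck were not tested. At 0 counts depth allows up to 0.118 CPM, so absence is not shown. No paired analysis was possible because the groups share no replicate number.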
